A study of Rattus norvegicus with 53 samples.

Results

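The genes described are the 90 nuclear-encoded genes of the mitochondrial respiratory chain and ATP synthase that a rat expression array measured in blood mononuclear cells. They were taken by symbol, as every annotated gene starting with Nduf, Uqcr, Sdha to Sdhd, Cox4 to Cox8 or Atp5, among 14217 genes with a probe set of their own. This family was chosen with earlier results of these data known. A gene with several probe sets was represented by the one with the highest mean. The 90 genes comprised 6 core and 30 accessory subunits of complex I with 6 assembly factors, 4 subunits of complex II with 4 assembly factors, 7 genes of complex III, 17 of complex IV and 16 of complex V. Another 7 probe sets with such symbols matched several genes and were left unnamed. Classes follow the symbols, so Ndufa4, which is now counted as a complex IV subunit, is listed under complex I. Cox6c-ps1 is a pseudogene whose sequence resembles Cox6c, so the signals of that pair are uncertain.

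The respiratory chain moves electrons from NADH (through complex I) and succinate (through complex II) to ubiquinone, then through complex III and cytochrome c to complex IV, which reduces oxygen. Complexes I, III and IV pump protons across the inner membrane, and complex V, the ATP synthase, uses the gradient to make ATP. Complex II is also the succinate dehydrogenase of the citric acid cycle, and in blood leukocytes the balance between this chain and glycolysis is known to shift with activation.

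Mononuclear cells of healthy male Brown Norway (BN) rats aged 180 days were cultured for 6 h in 20% plasma or serum (the labels use both words), and 1 array was run per culture, 53 arrays in all. The study asked which genes serum of the diabetes-prone BB rat induces in healthy cells. The cells received autologous BN serum (n = 10), allogeneic serum of other BN rats (n = 15), serum of DRlyp/lyp rats aged 60 days (n = 4), the same serum supplemented with the interleukin-1 receptor antagonist IL-1RA (n = 4), serum of DR+/+ rats aged 60 days (n = 4), or autologous serum with interleukin-1 beta, written IL-1B in the labels (n = 4). DRlyp/lyp BB rats carry the lymphopenia mutation and develop autoimmune diabetes, and DR+/+ rats are the BB line without it. The other 12 cultures received serum taken at 40 days from DRlyp/lyp rats injected from day 30 for 10 days with human IL-1RA (350 ug/kg/day, n = 6) or with PBS (n = 6). For the IL-1RA group one label describes injected animals and another a serum supplemented in the dish, and this conflict could not be settled. DRlyp/lyp and DR+/+ donors differed from the BN donors in strain and in age (60 or 40 against 180 days), so these cannot be told apart. The labels do not say whether replicates were separate animals or cultures, so p-values measure only the spread between these samples.

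The arrays formed 2 sets. Set 1 held autologous replicates 1 to 6, allogeneic replicates 1 to 3 and the 12 day-40 cultures (21 arrays), and set 2 held the remaining 32. Clustering on all genes outside the 90 placed 53 of 53 arrays with their set. The labels do not say what the sets are, so comparisons were made within a set. Values are RMA log2 signals, and a gene was called at an adjusted p under 0.05 (limma, Benjamini-Hochberg over 31042 probe sets, n = arrays per group as above). The number of arrays limits the precision, and levels of different genes are not compared because probe sets differ in response. Markers of T cells, B cells and monocytes were present in every group, and those of platelets and erythrocytes as well, with the 11 platelet markers averaging 8.77 to 11.1 across arrays and the 7 erythroid markers 7.74 to 10.9. In bulk arrays, fewer cells of a type and less RNA per cell cannot be told apart.

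Of the 90 genes, 72 had a mean over the 53 arrays above 7, as did 6090 of all genes, called bright genes here. The 18 below that mean included 6 isoform genes known mainly from other tissues: Cox6a2, Cox7a1 and Cox8b of heart and skeletal muscle (means 4.94, 4.52 and 4.28), Cox6b2 of testis (3.59), the lung isoform Cox4i2 (4.14) and Ndufa4l2 (5.39). Their widespread counterparts Cox4i1 (9.87), Cox6a1 (10.2), Cox6b1 (9.75), Cox8a (10.4) and Ndufa4 (8.41) all lay above it. These means place each probe set against the limit of 7 and are not compared with one another.

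The mean over the 90 genes differed little between the 4 groups of set 1 and more between the 6 of set 2. In set 1 it was 8.30 ± 0.168 (SD, n = 6) with autologous serum, 8.29 ± 0.262 (n = 3) with allogeneic serum, 8.34 ± 0.141 (n = 6) with day-40 PBS serum and 8.27 ± 0.113 (n = 6) with day-40 IL-1RA serum. In set 2 it was lowest with allogeneic serum, 8.28 ± 0.283 (n = 12), and highest with day-60 DRlyp/lyp serum, 8.84 ± 0.192 (n = 4). Between these lay autologous serum at 8.74 ± 0.251 (n = 4), DRlyp/lyp serum with IL-1RA at 8.64 ± 0.149 (n = 4), DR+/+ serum at 8.61 ± 0.0900 (n = 4) and autologous serum with IL-1B at 8.57 ± 0.210 (n = 4). Neighbours in this order lay within 1 SD of each other except the allogeneic group and its neighbour, and the 12 allogeneic arrays, from 7.68 to 8.75, overlapped each other group.

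**Figure D1:**
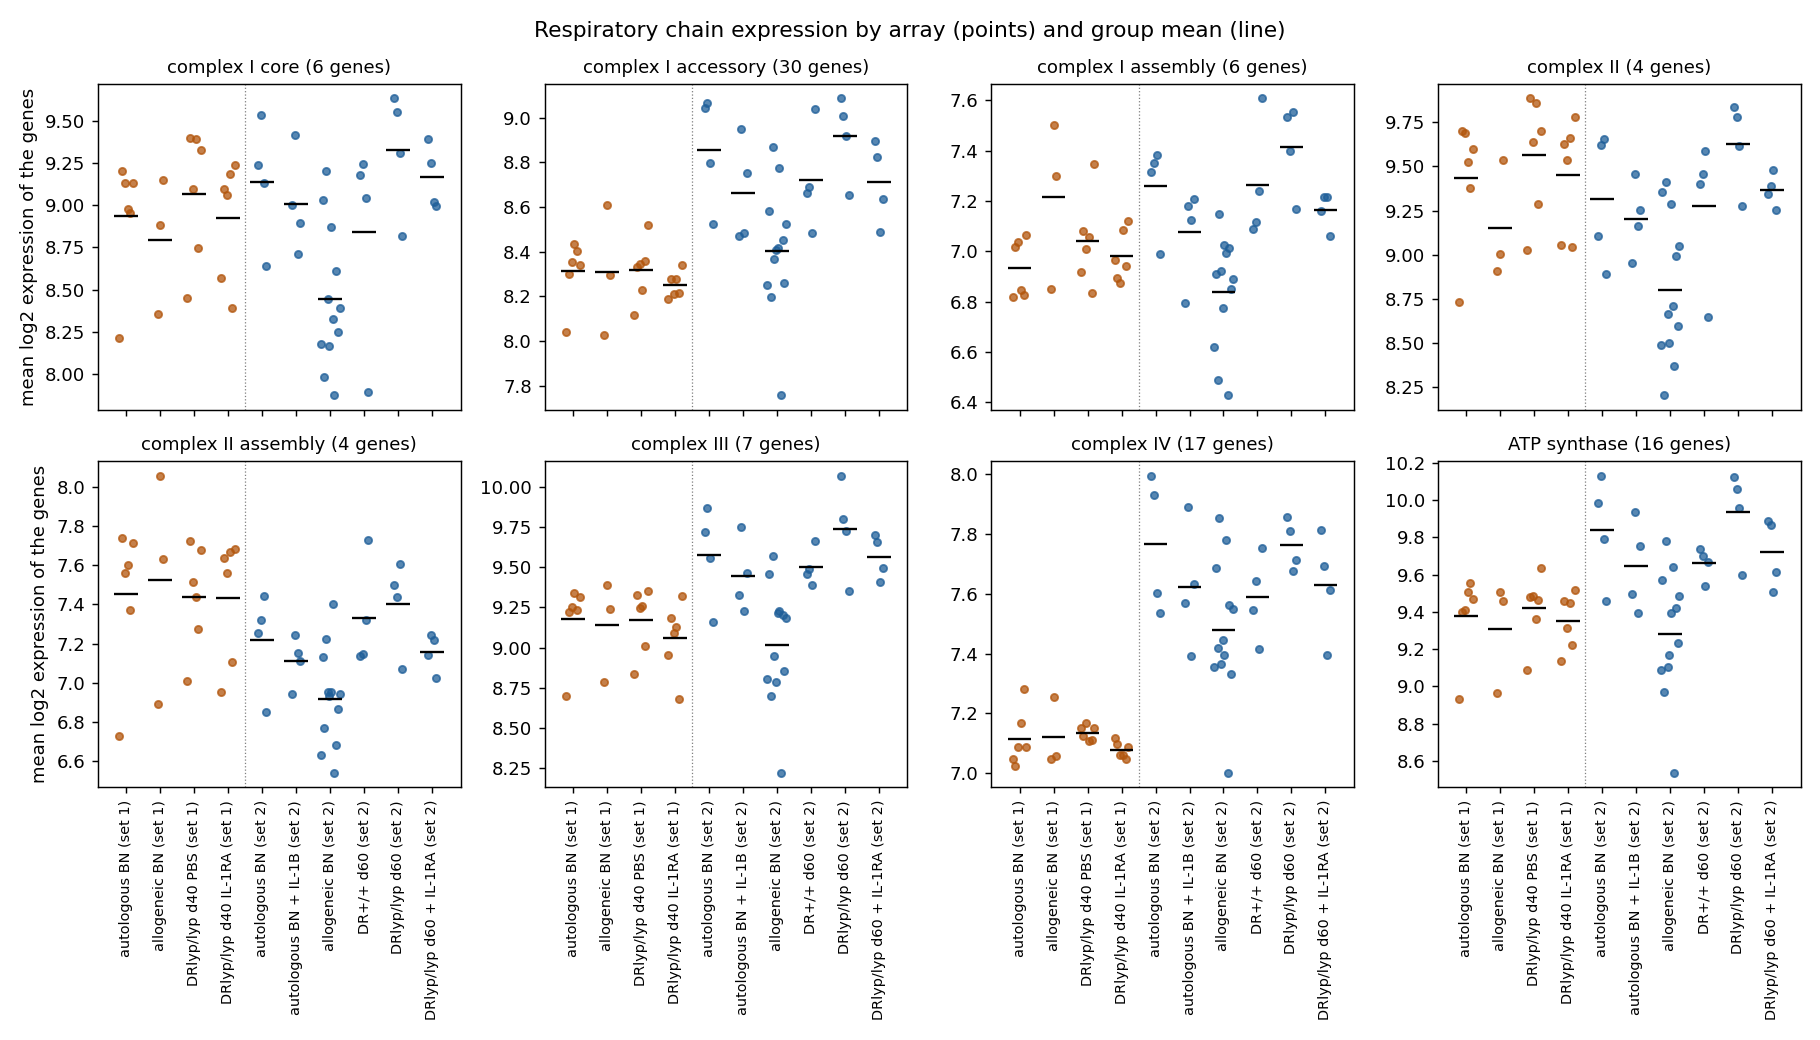
Mean log2 signal of the genes of each class on every array, by group and array set (set 1 orange, set 2 blue; 1 point per array, lines the group mean). Complex IV lies at 7.02 to 7.28 on the 21 arrays of set 1 and at 7.0 to 7.99 on the 32 of set 2, where the lowest is an allogeneic array.

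With day-60 DRlyp/lyp serum, 41 of the 90 genes were higher than with allogeneic BN serum and 0 were lower (4 against 12 arrays, set 2). This share, 45.6%, stands beside 9.69% of all probe sets called higher and 6.30% called lower. Among bright genes, where most of the 90 lie, 28.4% were higher and 1.23% lower, against 38 of the 72 bright respiratory chain genes (52.8%) and 0. The median log2 difference was 0.58 over the 90 genes and 0.68 over the 72 bright ones, against 0.41 over all bright genes and 0.05 over all genes. The called genes covered all classes: 5 of 6 complex I core subunits (class median 0.90), 11 of 30 accessory subunits (0.52), 6 of 6 complex I assembly factors (0.56), 3 of 4 complex II subunits (1.00), 1 of 4 complex II assembly factors (0.43), 3 of 7 complex III genes (0.69), 4 of 17 complex IV genes (0.29) and 8 of 16 complex V genes (0.66).

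With day-60 DR+/+ serum, against the same allogeneic arrays, 17 of the 90 genes were higher and 2 lower. The background was 11% of probe sets higher and 8.53% lower, and 26.7% and 2.12% of bright genes. Here 16 of 72 bright members (22.2%) were higher, a share near that background, and the median difference of 0.36 over the 90 genes stood beside 0.37 over bright genes. Class medians were 0.45 in the complex I core, 0.34 in accessory subunits, 0.55 in complex II, 0.52 in complex III, -0.02 in complex IV and 0.35 in complex V. The same 14 genes were called higher in both comparisons, which is 34.1% of the 41 and 82.4% of the 17, but both use the same control arrays, so this overlap is no separate evidence.

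**Figure D2:**
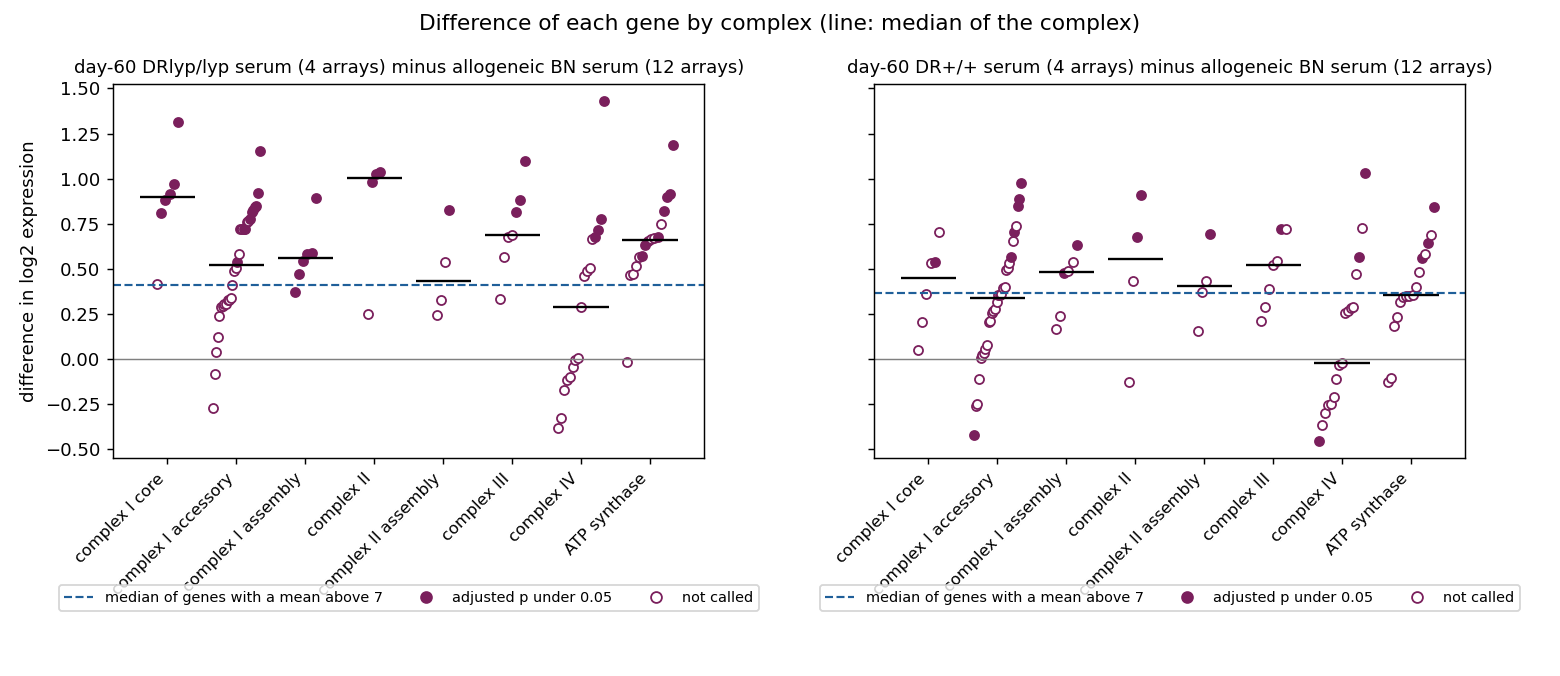
Log2 difference from allogeneic BN serum of each of the 90 genes by class, for day-60 DRlyp/lyp serum and day-60 DR+/+ serum (4 against 12 arrays each; filled points passed an adjusted p under 0.05, solid lines mark class medians and dashed lines the median of bright genes, 0.41 and 0.37). Most complex I core, complex II and complex V genes lie above the line with DRlyp/lyp serum. Complex IV genes spread to both sides of 0, those below it with DRlyp/lyp serum all having a mean below 7.

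In the complex I core, Ndufs7, an iron-sulfur subunit near the ubiquinone site, read 11.36, 11.13, 10.23 and 10.01 on the 4 DRlyp/lyp arrays. The 12 allogeneic arrays ran from 8.56 through a median of 9.21 to 10.9, so the groups overlapped. The difference was 1.31 (SE 0.425, adjusted p = 0.0348), a 2.49-fold change. Ndufv1, which binds NADH and flavin, rose by 0.97 (SE 0.298, adjusted p = 0.0279), and the core subunits Ndufv2, Ndufs3 and Ndufs8 rose by 0.81, 0.92 and 0.88. Ndufs1, the other core subunit measured, differed by 0.42 (adjusted p = 0.0940) with DRlyp/lyp serum and rose by 0.54 (adjusted p = 0.0330) with DR+/+ serum, where it was the only core subunit called. On DR+/+ replicate 4 the core genes averaged 7.89, against 9.04 to 9.25 on the other DR+/+ arrays.

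Among accessory subunits of complex I, Ndufb10 read 9.19, 9.0, 8.10 and 8.04 with DRlyp/lyp serum and 8.26, 8.64, 7.76 and 8.45 with DR+/+ serum, against 6.81, 7.35 and 8.68 as the lowest, median and highest allogeneic values. It rose by 1.15 (SE 0.279, adjusted p = 0.00905) and by 0.85 (SE 0.279, adjusted p = 0.0322). Ndufa13, also known as GRIM-19, rose by 0.92 (adjusted p = 0.00519) with DRlyp/lyp serum. Ndufb1 and the acyl carrier protein Ndufab1 rose by 0.97 and 0.89 with DR+/+ serum, and their differences with DRlyp/lyp serum, 0.77 and 0.72, did not pass (adjusted p = 0.0640 and 0.0585). Ndufb8 was 1 of the 2 genes that fell with DR+/+ serum, reading 5.11, 5.26, 5.17 and 4.88 against 5.21, 5.51 and 5.91 (difference -0.42, SE 0.120, adjusted p = 0.0160). Its signal is weak, and RMA compresses differences there. Of the assembly factors, Ndufaf3, which acts with Ndufaf4 early in assembly, rose by 0.89 (adjusted p = 0.00545) and by 0.63 (adjusted p = 0.0238).

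Complex II had the highest class median with DRlyp/lyp serum. Sdhd, which anchors the enzyme in the membrane, read 10.76, 10.47, 10.63 and 10.19 with DRlyp/lyp serum and 10.24, 10.01, 10.34 and 10.25 with DR+/+ serum, against 8.76, 9.55 and 10.1 as the lowest, median and highest allogeneic values. All 4 DRlyp/lyp arrays lay above all 12 allogeneic arrays, which held for 2 of the 90 genes (2.22%) and for 2.12% of bright genes. The differences were 0.98 (SE 0.197, adjusted p = 0.00387) and 0.67 (SE 0.197, adjusted p = 0.0185). A second, dimmer Sdhd probe set differed by 0.24 (adjusted p = 0.189) and -0.18 (adjusted p = 0.323), so the 2 probe sets of Sdhd disagree. The class median used the brighter one and would be lower with the dimmer one, so the rank of complex II depends on that choice.

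The catalytic flavoprotein Sdha read 10.44, 10.02, 10.23 and 9.63 with DRlyp/lyp serum and 9.96, 9.75, 10.06 and 10.02 with DR+/+ serum. The allogeneic arrays ran from 8.36 through 8.95 to 9.89, and 1 DRlyp/lyp and 1 DR+/+ array lay within that range. Sdha rose by 1.04 (SE 0.239, adjusted p = 0.00718) and by 0.91 (SE 0.239, adjusted p = 0.0109). The iron-sulfur subunit Sdhb rose by 1.03 (adjusted p = 0.00900) with DRlyp/lyp serum and differed by 0.43 (adjusted p = 0.199) with DR+/+ serum. Sdhc, the second membrane anchor, differed by 0.25 (adjusted p = 0.524) and -0.13 (adjusted p = 0.748), the latter with 1 DR+/+ array at 6.45 and the other 3 at 8.87 to 9.01. Sdhaf1, which helps to build the iron-sulfur centres of Sdhb, rose by 0.83 (adjusted p = 0.00482) and by 0.69 (adjusted p = 0.00815).

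In complex III, the core protein Uqcrc1 read 11.01, 10.76, 10.41 and 9.99 with DRlyp/lyp serum and 10.68, 10.49, 10.31 and 9.19 with DR+/+ serum, against 8.81, 9.31 and 10.2. The groups overlapped by 1 array in either case. It rose by 1.10 (SE 0.252, adjusted p = 0.00718) and by 0.72 (SE 0.252, adjusted p = 0.0426). The Rieske protein Uqcrfs1 rose by 0.88 (adjusted p = 0.0360) with DRlyp/lyp serum, while Uqcrc2, at 0.56, missed the threshold (adjusted p = 0.0610) although a dimmer Uqcrc2 probe set passed it (0.59, adjusted p = 0.0255).

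Complex IV was the most divided, but its class medians of 0.29 and -0.02 include genes with a mean below 7. With DRlyp/lyp serum 7 of its 17 differences were negative, all in genes with a mean below 7. Of the 72 bright members of all classes 71 differed upward, and the exception was Atp5if1 of complex V. With DR+/+ serum 9 complex IV differences were negative, among them that of the bright gene Cox6b1 (-0.11). Cox4i1, the common isoform of a regulatory subunit, had the largest difference of the 90 genes in both comparisons. It read 11.22, 10.63, 9.92 and 9.63 with DRlyp/lyp serum and 10.60, 10.58, 9.53 and 9.10 with DR+/+ serum, against allogeneic values from 7.68 through 8.89 to 10.5. The arrays of each day-60 group spanned more than 1 log2 unit and overlapped the allogeneic ones. The differences were 1.43 (SE 0.376, adjusted p = 0.0135) and 1.03 (SE 0.376, adjusted p = 0.0495). Cox8a was the other gene with all 4 DRlyp/lyp arrays above the allogeneic ones, at 11.43, 11.30, 11.66 and 11.43 against 9.91, 10.6 and 11.3 (0.77, adjusted p = 0.0102). With DR+/+ serum Cox8a differed by 0.29 (adjusted p = 0.272). Cox7a2l, a factor in supercomplex assembly, rose by 0.71 (adjusted p = 0.0321) with DRlyp/lyp serum, and Cox5b rose by 0.68 and 0.56 (adjusted p = 0.0146 and 0.0296). The dim isoform Cox4i2 fell with DR+/+ serum, at 4.09, 4.11, 4.04 and 4.41 against 4.27, 4.59 and 5.25 (-0.46, SE 0.135, adjusted p = 0.0199).

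In the ATP synthase, Atp5pb, subunit b of the peripheral stalk, had the smallest p of the 90 genes in both comparisons. It read 11.05, 11.03, 10.86 and 10.35 with DRlyp/lyp serum and 10.52, 10.14, 10.57 and 10.68 with DR+/+ serum, against 8.83, 9.62 and 10.4. It rose by 1.19 (SE 0.205, adjusted p = 0.00219) and by 0.84 (SE 0.205, adjusted p = 0.00677). Another stalk subunit, Atp5pf, rose by 0.68 (adjusted p = 0.0442) and by 0.64 (adjusted p = 0.0493). The stalk subunits Atp5pd and Atp5po and the alpha subunit Atp5f1a rose with DRlyp/lyp serum by 0.91, 0.66 and 0.90, and differed by 0.40, 0.23 and 0.18 with DR+/+ serum without passing. A dim second Atp5po probe set went the other way (-0.30 and -0.42). Atp5if1, the inhibitor that stops the enzyme from running in reverse, differed by -0.02 (adjusted p = 0.965) and -0.13 (adjusted p = 0.741).

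Several measures of the arrays moved with these groups, and their part in the results was not tested beyond the values given here. The SD of log2 values within an array averaged 1.94 on the 12 allogeneic arrays, from 1.81 to 2.11, against 2.11 with DRlyp/lyp and 2.12 with DR+/+ serum. The mean of all bright genes was 8.36, 8.73 and 8.70 in the same order. With a second quantile normalization 13 genes rose and 0 fell with DRlyp/lyp serum (median 0.30), and 3 rose and 4 fell with DR+/+ serum (median 0.042). Beside these, 7.47% and 8.39% of bright genes and 4.33% and 6.23% of all probe sets were called higher. When each array was centred on its bright genes, 20 rose and 7 fell (median 0.22), and 3 rose and 12 fell (median 0.011). These 2 fits called 17212 and 16926 of all probe sets in either direction. Only 3.86% and 4.46% of all probe sets were called higher, so most of the calls were lower. Among bright genes 12.15% and 12.25% were called higher. With the array SD as a covariate, 0 of the 90 genes were called in either comparison by limma, alongside 1 and 44 of all probe sets.

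**Figure D3:**
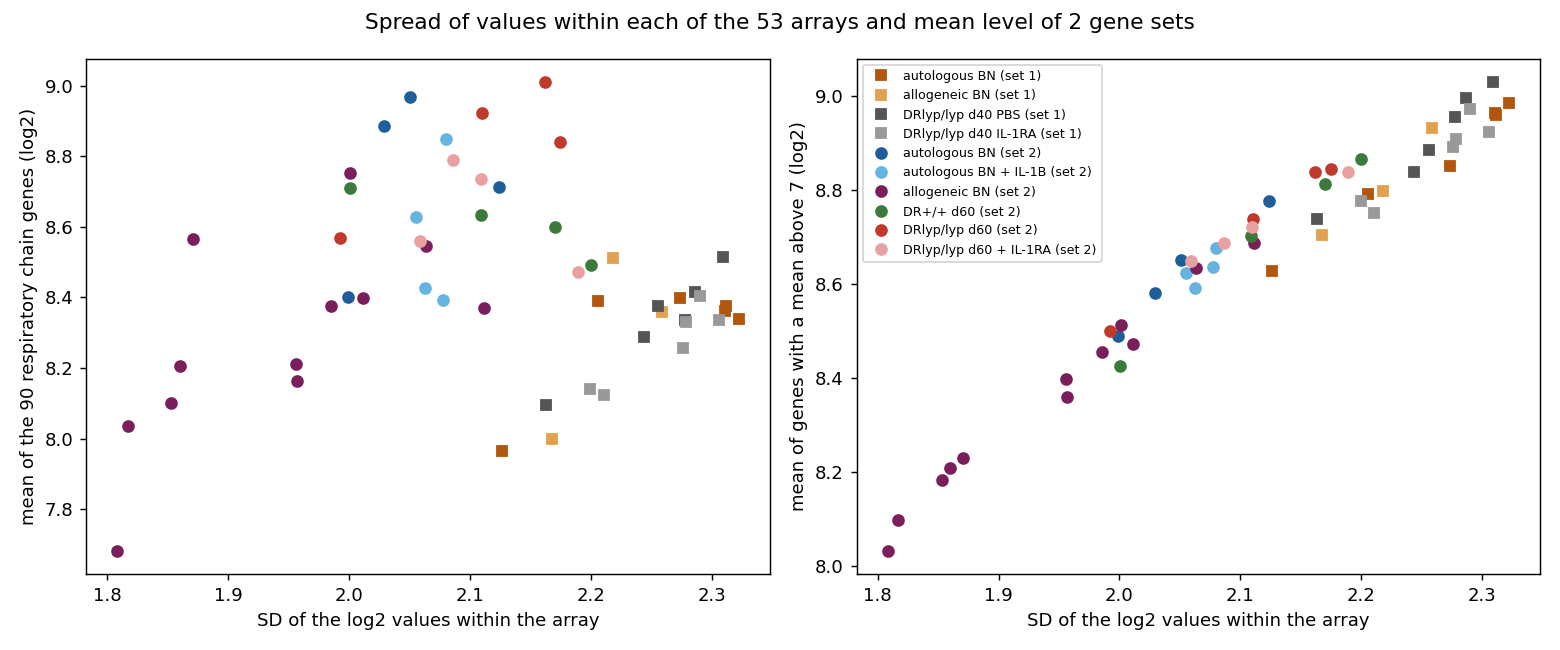
SD of log2 values within each of the 53 arrays against the mean of the 90 genes (left) and the mean of the bright genes (right), coloured by array set and group. The 12 allogeneic arrays of set 2 reach the lowest SD, 1.81, and the lowest mean of the 90 genes, 7.68.

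Single arrays also mattered. Without DRlyp/lyp replicate 1, 2 genes remained called, Sdhd and Atp5pb, beside 292 of all probe sets in either direction. Without replicate 3 there were 14 beside 1115, and without replicate 2 there were 20 beside 2099. With all arrays there were 41 beside 4964. In the DR+/+ comparison all arrays gave 17 genes higher and 2 lower, beside 6069 probe sets in either direction. Without DR+/+ replicate 1 the counts were 7 and 0 (2176 probe sets), and without DR+/+ replicate 3 they were 8 and 1 (2630). Without DR+/+ replicate 4 they were 18 and 3 (8967). Leaving out allogeneic replicate 6 gave 11 and 2 (4683), and leaving out allogeneic replicate 10 gave 19 and 4 (7964). Of the 12 monocyte markers, 8 were higher and 1 lower with either serum, and their mean was 7.06 (6.96 to 7.10) with DRlyp/lyp and 7.15 (6.85 to 7.34) with DR+/+ serum against 6.27 (5.81 to 7.28) with allogeneic serum, Cd14 differing by 1.97 and 1.93. Of 11 platelet markers 0 were higher and 1 and 4 lower, with means of 9.94, 9.61 and 10.3. No erythroid marker of 7 was called. Of 12 T cell markers 1 was higher with DRlyp/lyp serum, and 2 were higher and 1 lower with DR+/+ serum, of 6 B cell markers 1 and 2 were higher, and of 7 neutrophil markers 1 was higher, then 2 higher and 1 lower. The part of these cell types in the result was not tested.

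Related mitochondrial genes, listed with earlier results of these data known, were counted in the same fits. Their counts are to be read against 28.4% of bright genes higher with DRlyp/lyp serum (median 0.41) and 26.7% with DR+/+ serum (median 0.37). Of 15 citric acid cycle and pyruvate genes, 10 rose with DRlyp/lyp serum (median 0.70) and 4 with DR+/+ serum (median 0.39), with 0 lower in either, the DR+/+ count and median lying near that background. The succinyl-CoA ligase subunit Suclg1 rose by 1.22 and 0.62, the latter -0.085 with the array SD covariate, and the mitochondrial pyruvate carrier Mpc1 by 0.96 and 0.89. Of 17 electron carriers and dehydrogenases 7 and 1 rose (medians 0.31 and 0.14), among them Etfdh, which passes electrons from fatty acid oxidation to ubiquinone, by 0.87 and 0.51. Cytochrome c1, Cyc1, rose by 0.91 with DRlyp/lyp serum.

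Of 32 further assembly factors, 12 rose with DRlyp/lyp serum and 6 rose and 1 fell with DR+/+ serum (medians 0.40 and 0.21, at or below the bright-gene medians of 0.41 and 0.37), with the complex IV factors Surf1 up by 0.90 and 0.66 and Coa3 by 0.77 and 0.85. Of 18 genes of mitochondrial biogenesis 5 and 9 rose (medians 0.36 and 0.53), of which the first lay at the background share of bright genes, including Tfam, which packages mitochondrial DNA, by 0.88 and 0.95, the DNA-binding protein Ssbp1 by 1.35 and 1.3, and Gabpb1, a subunit of the factor GABP, by 0.88 and 0.94. Of 21 inner membrane transport and uncoupling genes 7 rose and 1 fell, then 1 rose and 1 fell (medians 0.53 and 0.26). Of 9 antioxidant genes 2 rose in either comparison (medians 0.39 and -0.04), with Prdx5 at 1.52 and 1.05. In the other 10 comparisons 0 genes of these 6 lists were called.

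Since the genes called with both day-60 sera included members of every complex, their promoter sequences were read for the motifs of 3 factors known to act at respiratory chain genes. Sequences are RefSeq's, build GRCr8, from 250 bases before to 50 after the annotated start, and 82 of the 90 genes had one. On either strand, CCGGAAG, the core of sites bound by GABP and other ETS factors, was present in 25 of the 82 (30.5%), in 22.0% of 5184 bright-gene promoters and in 9.22% of all 27457 promoters. GCGCNTGCG, the first 9 letters of the NRF1 motif, was present in 22 (26.8%), 16.3% and 6.34%. AAGATGGCG, from the YY1 motif, was present in 11 (13.4%), 5.09% and 1.93%. The motifs can overlap each other, and a match is a description of these letters only.

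The windows shown come from 6 of the 14 genes called higher with both sera and hold a motif before the start, printed in capitals (full NRF1 and YY1 motifs, or CCGGAAG, on either strand). One or more is given for each complex so that the motifs can be seen in their setting, each read 5′ to 3′ along the gene's strand.
Ndufb7, complex I, chr19:41477292-41477327, minus strand: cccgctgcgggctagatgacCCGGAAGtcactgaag
Sdha, complex II, chr1:30764444-30764536, plus strand: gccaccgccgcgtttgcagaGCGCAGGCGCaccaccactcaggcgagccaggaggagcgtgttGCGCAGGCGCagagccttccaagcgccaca
Sdhd, complex II, chr8:59850663-59850709, minus strand: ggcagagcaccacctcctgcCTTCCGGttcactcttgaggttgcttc
Uqcrc1, complex III, chr8:118468139-118468188, plus strand: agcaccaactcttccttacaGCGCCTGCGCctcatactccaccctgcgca
Cox5b, complex IV, chr9:46417803-46417836, plus strand: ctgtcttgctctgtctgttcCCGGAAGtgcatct
Atp5pf, complex V, chr11:37375159-37375232, minus strand: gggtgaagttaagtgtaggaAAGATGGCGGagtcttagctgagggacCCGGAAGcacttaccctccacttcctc
Sdha holds the NRF1 motif at 2 places within 89 bases of the start. Atp5pf, subunit F6 of the peripheral stalk, holds the YY1 and ETS motifs in the same window.

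The direct comparison of day-60 DRlyp/lyp with DR+/+ serum called 0 of the 90 genes, beside 0.00322% of probe sets higher and 0% lower. At an unadjusted p under 0.05, 8 genes (8.89%) were higher and 0 lower with limma. Of the 72 bright members 6 (8.33%) were higher and 0 lower, beside 4.35% and 3.43% of bright genes. Over the 90 genes, 75 differences were positive with a median of 0.21. The median was 0.24 for bright members and 0.05 for bright genes. The complex I core had the largest class median, 0.57. Its genes averaged 7.89 on DR+/+ replicate 4 and 9.04 to 9.25 on the other DR+/+ arrays, and the part of that array in this class median was not tested. Without that array the median over all 90 genes was 0.29. Ndufv2 had the smallest p, at 9.94, 9.90, 9.58 and 9.46 with DRlyp/lyp serum and 9.25, 9.20, 9.19 and 8.19 with DR+/+ serum (0.76, SE 0.276, adjusted p = 0.996). All 4 DRlyp/lyp arrays lay above all 4 DR+/+ arrays for 7 of the 90 genes (7.78%) and for 1.81% of bright genes, but none of these differences passed over all probe sets. The 0 held with array weights and with the replicate number as a block.

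Adding IL-1RA to the DRlyp/lyp serum called 0 of the 90 genes, where 0% of probe sets were called. At an unadjusted p under 0.05, 0 were higher and 1 lower (1.11%) with limma. Of the 72 bright members 0 were higher and 1 (1.39%) lower, beside 1.17% and 0.509% of bright genes. The signs mostly ran one way, 80 of 90 differences being negative with a median of -0.18, against -0.03 for bright genes. Ndufa4 read 8.53, 8.23, 8.23 and 8.08 with IL-1RA and 8.94, 8.74, 8.89 and 8.57 without, so the groups did not overlap (-0.52, SE 0.248, adjusted p = 1.00). Sdhd was also lower on every array with IL-1RA, at 9.97, 10.02, 10.18 and 10.09, and did not pass either. All 4 arrays with IL-1RA lay below all 4 without for 6 of the 90 genes (6.67%) and for 1.87% of bright genes.

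Against autologous serum of set 2, day-60 DRlyp/lyp serum called 0 of the 90 genes (0.00644% of probe sets higher, 0% lower), with 0 at an unadjusted p under 0.05, beside 1.18% of bright genes higher and 0.985% lower. The median of 0.08 had no stable sign: it was -0.026 without autologous replicate 10 and -0.026 with bright-gene centring. DR+/+ serum also called 0 (0.242% higher and 0.0290% lower), with a median of -0.14. At an unadjusted p under 0.05 with limma, 0 were higher and 6 lower (6.67%), beside 7.19% and 6.68% of all genes. Among bright members 0 were higher and 3 of 72 lower (4.17%), beside 11.5% and 4.70% of bright genes. Cox6b1, which lies at the dimer interface of complex IV, read 9.90, 10.22, 9.95 and 9.96 with DR+/+ serum and 10.63, 10.66, 10.32 and 10.27 with autologous serum (-0.46, SE 0.193, adjusted p = 0.286). The DR+/+ arrays all lay below the autologous ones for 3 of the 90 genes (3.33%), Cox6b1, Ndufa3 and Ndufb8, against 1.69% of bright genes and 3.21% of all genes, and none of these passed. Sdha, Sdhb and Cox4i1, called against allogeneic serum, were not called against autologous serum, where Cox4i1 read 10.92, 10.52, 9.85 and 9.49.

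Allogeneic against autologous serum in set 2 called 0 of the 90 genes (0.00322% of probe sets in each direction), yet 84 of 90 were lower on average and the median was -0.47, against -0.29 for bright genes. At an unadjusted p under 0.05, 1 gene was higher and 49 lower (54.4%) with limma. Of the 72 bright members 0 were higher and 47 (65.3%) lower, beside 0.985% of bright genes higher and 28.9% lower. Ndufa13 ran from 7.52 through 8.27 to 9.11 on the allogeneic arrays and read 9.18, 9.26, 9.25 and 8.63 on the autologous ones (-0.76, SE 0.197, adjusted p = 0.156). Ndufaf3 differed by -0.74 (SE 0.194, adjusted p = 0.156). With actin 3' minus 5' signal, which rises as RNA degrades, as a covariate, 12 of the 90 genes were called lower. That fit called 490 of all probe sets in either direction. Without autologous replicate 10, 4 of the 90 genes were called lower, beside 134 of all probe sets in either direction.

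In set 1 the same comparison called 0 of the 90 genes, beside 0.00644% of probe sets higher and 0.0226% lower, with a median of 0.00 and 48 positive differences. At an unadjusted p under 0.05, 4 (4.44%) were higher and 3 (3.33%) lower with limma. Of the 72 bright members 3 (4.17%) were higher and 3 (4.17%) lower, beside 4.98% and 8.10% of bright genes. The actin covariate gave a median of -0.19. Sdhc had the smallest p, at 8.56, 6.90 and 8.99 with allogeneic serum and from 8.43 through 9.40 to 9.42 with autologous serum (-1.07, SE 0.333, adjusted p = 0.138), with 1 allogeneic array far below the other 2. Array weights called 1 gene higher, beside 1.56% of bright genes and 3.09% of all probe sets. Without allogeneic replicate 1, Ndufaf4 was called higher, beside 1168 of all probe sets in either direction. Without autologous replicate 1, 1 gene was called lower, beside 883 of all probe sets in either direction.

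The contrast between allogeneic and autologous serum was tested for a difference between the 2 sets. Of the 90 genes 1 was called, beside 0.0838% of probe sets higher and 0.612% lower in set 1 relative to set 2. That gene was Ndufaf3 (difference of differences 1.14, SE 0.277, adjusted p = 0.0387), which read 7.59, 8.26 and 8.15 with allogeneic and 7.50 to 7.65 with autologous serum in set 1. In set 2 it ran from 6.79 through 7.43 to 8.03 with allogeneic serum and read 8.58, 8.42, 8.09 and 7.61 with autologous serum. It was called in 16 of 25 fits that left out 1 array. The call was lost, with adjusted p up to 0.353, without set 1 allogeneic replicate 2 or 3, without autologous replicate 2, 3, 4 or 6, or without autologous replicate 7, 8 or 9. Over the 90 genes, 85 such differences were positive with a median of 0.43, against 0.26 for bright genes.

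Interleukin-1 beta in autologous serum called 0 of the 90 genes (0% of probe sets), and 0 passed an unadjusted p under 0.05 with limma, beside 1.07% of bright genes higher and 0.230% lower. The median was -0.18, against -0.02 for bright genes, and 81 of 90 differences were negative. Ndufa8 read 8.37, 8.98, 8.56 and 8.91 with IL-1B and 9.64, 9.22, 8.95 and 8.51 without (-0.37, SE 0.221, adjusted p = 1.00), with overlapping groups.

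The day-40 sera called 0 of the 90 genes in each of 3 comparisons, and 0% of probe sets. PBS serum against autologous serum had 5 genes (5.56%) higher and 1 (1.11%) lower at an unadjusted p under 0.05 (limma). Of the 72 bright members 3 (4.17%) were higher and 1 (1.39%) lower, beside 2.87% and 1.49% of bright genes. The median over the 90 genes was 0.04. That median turned to -0.033 without autologous replicate 1, to -0.016 with bright-gene centring and to -0.0092 with the actin covariate. Atp5f1b, the catalytic beta subunit of ATP synthase, read 11.47 to 11.98 on the 6 PBS arrays and 11.04 to 11.42 on the 6 autologous ones (0.42, SE 0.133, adjusted p = 0.986). These groups did not overlap, as also for Ndufaf3, which makes 2 of the 90 genes (2.22%) with all PBS arrays above, against 0.230% of bright genes. IL-1RA against autologous serum had a median of -0.04 with 0 higher and 1 lower (1.11%). Of the 72 bright members 0 were higher and 1 (1.39%) lower, beside 0.361% and 0.148% of bright genes. Ndufb1 had the smallest p (-0.42, SE 0.169, adjusted p = 1.00). IL-1RA against PBS serum had a median of -0.08 with 0 higher and 3 lower (3.33%). Of the 72 bright members 0 were higher and 3 (4.17%) lower, beside 0.903% and 1.25% of bright genes. Ndufaf3 ran from 7.19 to 7.80 with IL-1RA and from 7.66 to 8.39 with PBS (-0.38, SE 0.144, adjusted p = 1.00).

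**Figure D4:**
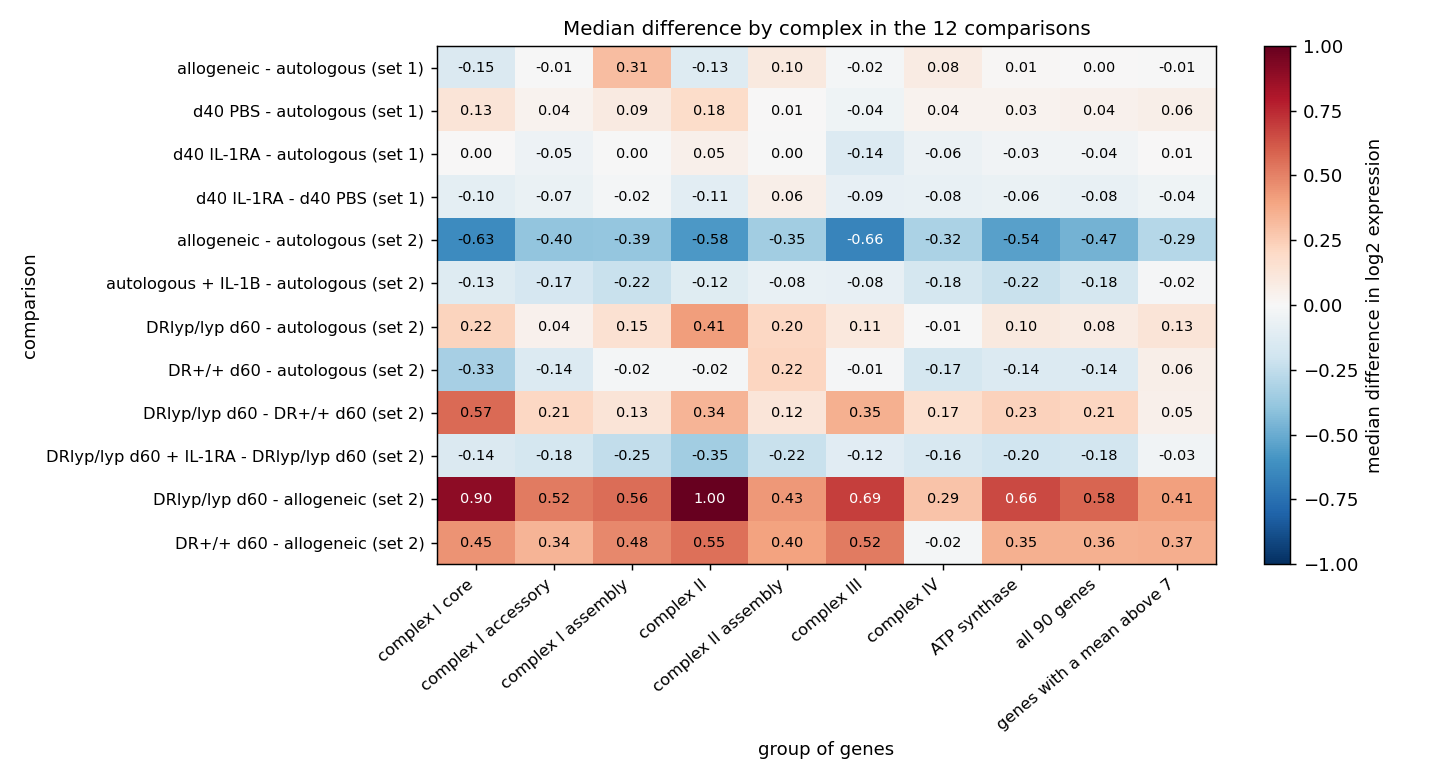
Median log2 difference of each class (columns) in the 12 comparisons (rows), with the medians of all 90 genes and of genes with a mean above 7 in the last columns (red higher, blue lower). The deepest red is 1.00, for complex II with day-60 DRlyp/lyp against allogeneic serum, a value that depends on the Sdhd probe set used. Over all 90 genes the comparisons of set 1 lie between -0.08 and 0.04.

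The same group measured in both sets showed the respiratory chain genes at different levels, which is given as a description with no test. With autologous serum, 75 of the 90 genes were lower in set 1 than in set 2 (median difference -0.53). Of the 6018 other bright genes 2209 were lower in set 1, and their median difference was 0.21. Of all 14217 genes, 8675 were lower in set 1 (median -0.16). All 6 set 1 arrays lay below all 4 set 2 arrays for 27 of the 90 genes (30%), against 9.04% of other bright genes and 20.8% of all genes. Class medians were -0.61 in complex IV, -0.64 in complex III, -0.56 in complex I accessory subunits, -0.55 in complex V, -0.26 in the complex I core and 0.06 in complex II. Cox8a lay lowest in set 1 by comparison (-1.84), at 9.27 to 9.70 against 11.24, 11.38, 11.52 and 11.30. Cox6b1 followed at -1.44, then Ndufa12 at -1.40, Cox6a1 at -1.32 and Cox7b at -1.08. On the other side Cox7a2l was higher in set 1 by 0.62, Ndufs1 by 0.52 and Sdhc by 0.48.

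With allogeneic serum the median difference between the sets was -0.005, against 0.47 for other bright genes and -0.07 for all genes. Of the 90 genes, 45 were lower in set 1. Other measures differed between the sets as well. The erythroid markers averaged 8.97 in set 1 and 10.5 in set 2 with autologous serum, and the T cell markers 9.33 and 8.78. The actin 3' minus 5' difference averaged 3.58 on set 1 and 2.58 on set 2, and the SD within an array 2.25 and 2.04. Their part in the difference was not tested, and levels in day-40 and day-60 sera cannot be told apart from the set.

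**Figure D5:**
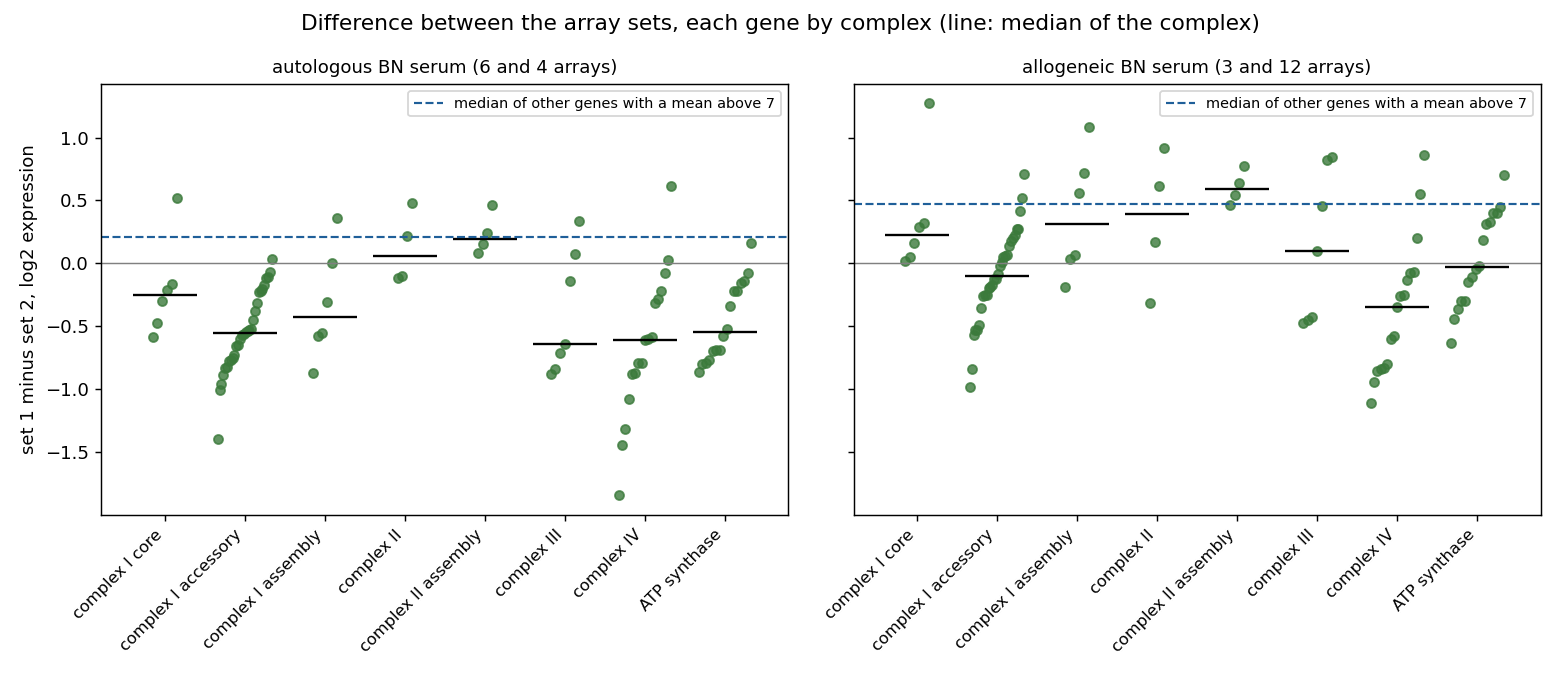
Difference of array set 1 minus array set 2 for each of the 90 genes by class, for autologous serum (6 and 4 arrays) and allogeneic serum (3 and 12 arrays); dashed lines mark the median of the other bright genes, 0.21 and 0.47. With autologous serum 75 of the 90 genes lie below 0, down to -1.84 for Cox8a, and complex II and its assembly factors lie around or above 0.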

How the data were processed

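Each of 53 rat arrays gave log2 expression values, which the authors deposited after RMA and, with a role not stated, Partek 6.2, per the submitters' processing notes. RMA compresses differences of weak signals. Members and gene lists were chosen with earlier results of these data known. The table held 31099 probe sets; 57 controls were left out and 31042 tested. Gene symbols came from the platform annotation, and 436 probe sets with several symbols and 9780 with none stayed unnamed. No 2 arrays were duplicates (highest correlation 0.996).

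Group means were fitted within each array set with limma 3.58.1 (R 4.3.3; variances trended on mean expression), for 12 comparisons with Benjamini-Hochberg adjustment over 31042 probe sets. The fit was tested on simulated data. Named genes were the called members of each comparison (the 10 with the largest differences where over 10 were called in a direction), or, with none called, the 2 of smallest p, the complex II subunits, Atp5if1, paired isoforms, the 5 highest and lowest between array sets, and up to 4 called genes per list; others were named after their values were seen. The rule also took the brightest and dimmest probe set of each class, which are not given because probe sets are not compared in level. The alternatives were 10 settings, single arrays left out, and 3 settings chosen after seeing the data (bright-gene centring and the Gapdh and array SD covariates). Replicate numbers paired samples in 5 comparisons, where same-numbered samples deviated together (lowest correlation 0.101); the block then called 0 members. Plots were made in Python 3.11.15 (matplotlib 3.10.9).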

Additional observations from a re-analysis of the deposited data

Results flagged for a closer look

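Tests for a single array far from the others of its group were made class by class on the same arrays. They are therefore not independent, and their count cannot be set against the 1 in 20 that chance alone gives. An array stood apart on 7 of the 64 tests. Of these, 6 concerned autologous replicate 1 of set 1, whose mean level was the lowest in complex I accessory subunits (8.04, the others 8.30 to 8.43), the complex I core (8.21, the others 8.96 to 9.20), complex II (8.73, the others 9.38 to 9.70), complex II assembly factors (6.73), complex III (8.70, the others 9.22 to 9.34) and complex V (8.93, the others 9.40 to 9.56). The other was DR+/+ replicate 4, whose complex I core genes averaged 7.89 while the other 3 arrays read 9.04 to 9.25. The contrast of allogeneic with autologous serum differed between the 2 array sets for Ndufaf3, by 1.14 on the log2 scale (limma, adjusted p = 0.0387).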

How the results depend on the processing

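Counts are of probe sets called by limma, then of the 90 genes; the cause of a change was not tested. Day-60 DRlyp/lyp against allogeneic serum called 4964 in all. It called 2367 (13 genes higher) after a second quantile normalization, 8944 (64 higher, 1 lower) with array weights, 7838 (2 lower) with the actin covariate, 883 (10 higher) at an adjusted p under 0.01, 17212 (20 higher, 7 lower, median 0.22) with bright-gene centring, 3004 with a Gapdh covariate and 1 (0 genes) with an array SD covariate; the joint model called 1 gene lower. Without single arrays it called 292 to 7368, with 2 to 51 genes higher, 0 to 2 lower and medians of 0.52 to 0.66.
Day-60 DR+/+ against allogeneic serum called 6069. In the same order it called 3742 (3 higher, 4 lower, median 0.042), 12844 (30 and 5), with the actin covariate 22 and 3, 1576 (2 and 0) at the stricter threshold, 16926 (3 and 12, median 0.011), 4 genes lower with the Gapdh covariate and 44 (0 and 0) with the array SD covariate, under which Suclg1 (-0.085) and Idh3b (-0.092) reversed. The joint model called 26 genes higher, and 0 were lower among probe sets above the median. Without single arrays it called 2176 to 8967, with 7 to 22 genes higher, 0 to 4 lower and medians of 0.28 to 0.39.
Allogeneic against autologous serum of set 1 called 9, and 332 in the joint model, 2 after quantile normalization, 17 with median centring, 1 above the median, 2471 (1 gene higher) with array weights, 0 with the actin covariate (median -0.19), at the stricter threshold, with bright-gene centring and with the replicate block, and 3 with the Gapdh covariate. Leaving out 1 array gave 0 to 1168 (medians -0.12 to 0.13; 0 to 1 gene higher, 0 to 1 lower). In set 2 it called 2, then 5 after quantile normalization, 0 with median centring and at the stricter threshold, 7 with array weights, 490 (12 genes lower) with the actin covariate, 7 (median -0.22) with bright-gene centring, and 0 to 134 (0 to 4 genes lower, medians -0.58 to -0.41) without single arrays. Their contrast between sets called 216, and 0 to 1040 without single arrays.
DRlyp/lyp against autologous serum called 2, and 11 in the joint model, 1 after quantile normalization, above the median and with the actin covariate, 5 with array weights, 0 at the stricter threshold and with bright-gene centring, and 0 to 9 without single arrays. DR+/+ against autologous serum called 84, and 418 in the joint model, 1415 with array weights, 16 at the stricter threshold, 142 with the Gapdh covariate and 5 to 298 without single arrays. DRlyp/lyp against DR+/+ serum called 1, and 0 in the joint model and with the replicate block, 15 with array weights (median 0.31), 2 with the Gapdh covariate and 1 to 1 without single arrays (medians 0.14 to 0.31). Day-40 IL-1RA against autologous serum called 0, and 1 with array weights, 4 with the replicate block and 0 to 1 without single arrays. Against PBS serum it called 0, and 1 in the joint model, 3 with array weights and with the replicate block, and 0 to 1 without single arrays. The block moved no member across the threshold. With IL-1RA in DRlyp/lyp serum, with IL-1B and with day-40 PBS serum, 0 to 0 were called without single arrays; the median over the 90 genes changed sign for day-40 PBS serum (-0.033 to 0.061) and for DRlyp/lyp against autologous serum (-0.026 to 0.19).
Same-numbered allogeneic and autologous samples did not deviate together in every pair (lowest correlation 0.0592 in set 1 and -0.278 in set 2). Signals near background are compressed, which limits what the dim isoforms can show.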

Other observations

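In the 4 groups of set 2 numbered 1 to 4, replicates 1 and 2 both read above replicates 3 and 4 in every group for 7 of the 90 genes (7.78%): Ndufa7, Ndufs7, Ndufs8, Uqcrc1, Cox4i1, Cox6a1 and Atp5f1d. The same held for 439 of the 6018 other bright genes (7.29%). The reverse order held for 0 of the 90 genes and for 154 of the others (2.56%). This pattern was looked for after the values were seen, and the labels do not say what a replicate number stands for.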
